A study of Mus musculus with 1009 samples.

Results

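MicroRNA (miRNA) reads of hypothalamus and thalamus were compared between female C57BL/6JN mice under acute dietary restriction (aDR) and mice fed ad libitum (AL). All mice were killed at 19 months of age. They had been assigned to aDR or AL at random at 18 months, and aDR mice received 10% restriction for 7 days and 25% restriction from then on. The aDR mice were fed once a day in the afternoon, and all mice were killed in the morning ahead of that meal. The libraries were chosen as all hypothalamus and thalamus libraries of this cohort that held at least 1000000 miRNA reads. This gave 15 of the 16 libraries of these regions, out of 113 libraries of the cohort and 1009 samples of the series. The hypothalamus library of aDR mouse 65, with 0.0336 mega-reads (1000000 reads each), was the one left out. Hypothalamus was thus represented by aDR mice 61, 62 and 67 and by AL mice 63, 66, 68 and 69. Thalamus was represented by aDR mice 61, 62, 64, 65 and 67 and by AL mice 63, 66 and 69. These are 9 mice in all, 6 of which gave both regions. Each library is from whole tissue of its region, so it mixes neurons, glia, vessels and, near the third ventricle, ependyma. The study describes perfusion and tissue punches for its aging cohort, and the sources used here do not state whether the aDR and AL brains were perfused. The AL mice are the controls for both regions, and no other diet or restriction time was part of the comparison.

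A miRNA is processed from a hairpin into an RNA of about the length of a siRNA and guides silencing proteins to messenger RNAs. Pairing runs mainly through bases 2 to 8 of the miRNA, the seed, so miRNAs with the same seed are grouped into a family that shares many targets. The hypothalamus senses nutrients and hormones such as leptin, insulin and ghrelin, and its arcuate neurons drive or suppress feeding. The thalamus relays sensory and motor signals to the cortex and has no comparable role in energy balance. Among the miRNAs of these tissues, miR-124-3p and miR-128-3p are neuronal, miR-7a-5p and miR-7b-5p are rich in neuroendocrine cells, and let-7 miRNAs are abundant in the mature brain, where they hold back genes of early development.

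The mature sequences of the miRNAs on which the results turn are given from RefSeq (build GRCm38.p6), 5′ to 3′, with the seed in capitals. Of 106 miRNAs named by the rules of the comparison, 86 had a mature sequence in that table. The let-7 family is shown first because it holds much of each library. Its 22-base members let-7a, let-7b, let-7d, let-7e, let-7f, let-7g, let-7i and miR-98 differ from let-7c at 1 to 4 bases and share its seed, so reads of near-identical members can be assigned to one another.
let-7c-5p: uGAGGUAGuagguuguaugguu
let-7a-5p: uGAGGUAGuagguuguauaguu
let-7e-5p: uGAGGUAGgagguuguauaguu
miR-98-5p: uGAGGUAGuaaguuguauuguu
let-7k: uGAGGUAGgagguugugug
The next 3 miRNAs, miR-128-3p, miR-148b-3p and miR-135a-1-3p, were called in hypothalamus whichever single library was left out, and their seeds differ from one another.
miR-128-3p: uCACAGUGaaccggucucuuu
miR-148b-3p: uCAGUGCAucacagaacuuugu
miR-135a-1-3p: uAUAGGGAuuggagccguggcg
The next lines hold markers of the regions and of neighbouring tissue. The pair miR-7a and miR-7b shares a seed, as do miR-429 and miR-200b.
miR-7a-5p: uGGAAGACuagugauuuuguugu
miR-7b-5p: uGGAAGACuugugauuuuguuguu
miR-7689-3p: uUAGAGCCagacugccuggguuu
miR-429-3p: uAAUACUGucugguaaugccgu
miR-200b-3p: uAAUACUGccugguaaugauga
miR-1298-5p: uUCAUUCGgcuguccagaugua
miR-34b-5p: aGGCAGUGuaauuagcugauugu
The last lines hold families of the list for feeding and energy balance. The members miR-103 and miR-107 share a seed and sit in introns of pantothenate kinase genes, and the miR-29 members share another.
miR-103-3p: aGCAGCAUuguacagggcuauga
miR-107-3p: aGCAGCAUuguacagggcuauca
miR-29a-3p: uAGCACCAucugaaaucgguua
miR-29b-3p: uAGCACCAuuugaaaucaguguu
miR-29c-3p: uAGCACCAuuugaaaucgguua
By the annotation of the same build, miR-128-3p arises from chr1:128202404-128202424 (plus strand, intron of R3hdm1) and chr9:112118644-112118664 (minus strand, intron of Arpp21). The source of miR-148b-3p is chr15:103285185-103285206 (plus strand, intron of Copz1). The source of miR-1298-5p is chrX:147064918-147064939 (plus strand), in an intron of Htr2c, a serotonin receptor gene. The let-7e-5p locus is chr17:17830366-17830387 (plus strand, intron of Spaca6), and that of miR-98-5p is chrX:151913229-151913250 (plus strand, intron of Huwe1). let-7c-5p comes from chr15:85706616-85706637 (plus strand, exon of the non-coding gene Lncppara) and chr16:77599672-77599693 (plus strand, intron of the non-coding gene Mir99ahg).

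Depth ranged from 7.62 to 24.2 mega-reads of miRNA in hypothalamus and from 3.56 to 18.3 in thalamus, so counting error is small for abundant miRNAs and large for those with few reads. A count of 0 allowed up to 0.124 to 0.843 reads per mega-read of miRNA (rpmm), taken as 3 reads in a library. The region labels were checked with 20 markers from other mice, namely the 10 miRNAs most raised in hypothalamus and the 10 most raised in thalamus of the aging cohort at 3, 12 and 15 months, males and females alike. The mean log2 level of hypothalamus markers minus thalamus markers lay between −3.98 and −0.97 in the 8 thalamus libraries. In hypothalamus it was −0.61 in aDR mouse 62, near the thalamus range, and 1.48 in aDR mouse 67. The AL hypothalamus libraries lay between 0.69 and 2.54, so the markers were not even between the diets. The part of regional make-up in the diet differences was not tested. In the library labelled hypothalamus of aDR mouse 61 the value was −3.45. This library therefore stood inside the thalamus range, against its label. Its level of miR-7a-5p was 1754 rpmm, against 4227 to 33427 in the other hypothalamus libraries and 211 to 2258 in thalamus. Its level of the thalamus marker miR-7689-3p was 2593 rpmm, against 5.75 to 123 in the other hypothalamus libraries. In the comparison of the 2 regions, 101 of 1299 miRNAs differed (7.78%, limma), 41 higher in hypothalamus (3.16%) and 60 lower (4.62%), among them 7 of 10 hypothalamus markers higher in hypothalamus and 5 of 10 thalamus markers lower. Without the library labelled hypothalamus of mouse 61 the count was 157. Without this library the 3 aDR libraries of hypothalamus became 2, and the values so obtained are given with the results below. Of the 59 miRNAs named below that were called in hypothalamus with all libraries, 59 kept their direction without it and 16 were still called.

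**Figure D1:**
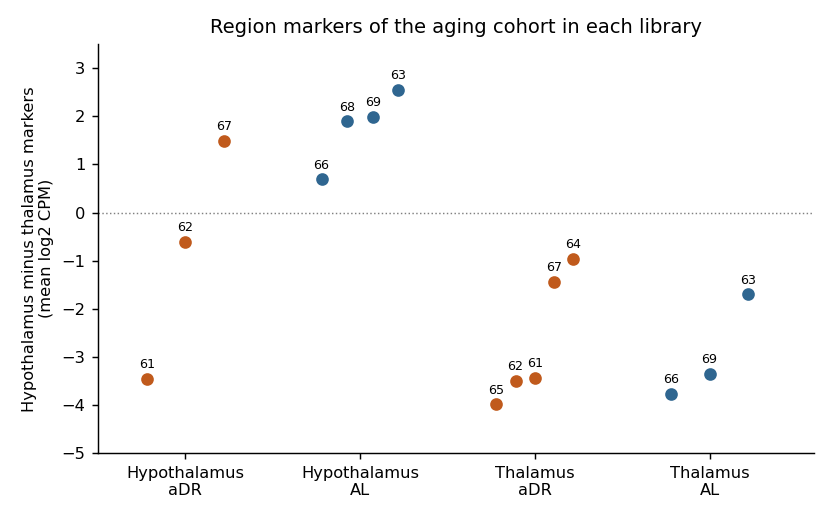
Mean log2 level of 10 hypothalamus markers minus that of 10 thalamus markers (vertical axis, log2 CPM) for each library, by region and diet, with the mouse number beside each point. The library labelled hypothalamus of aDR mouse 61 lies at −3.45, among the thalamus libraries.

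The aDR mice 61 and 67 stood apart from the other mice in the libraries of both region labels. The library of mouse 61 labelled hypothalamus carried thalamus markers, so the libraries of this mouse may not stand for separate regions. miR-128-3p, a neuronal miRNA, was at 5648 and 3217 rpmm in their hypothalamus libraries and at 4096 and 3182 in their thalamus libraries. In the other 11 libraries, of both diets, it lay between 15.4 and 441 rpmm. Forms of miR-124-3p, the most abundant neuronal miRNA, also differed. The form with an offset of 0 at the 5′ end and +1 at the 3′ end, in the notation of the table, made up 3.44% to 8.85% of the miR-124-3p reads of these 4 libraries and 29.2% to 54.9% in the other 11. Of 357 miRNAs with a mean of at least 10 TMM-scaled counts-per-million (CPM), 49 were above all other libraries in all 4 libraries of these mice and 35 were below. TMM is the trimmed mean of M values, a scaling that sets the bulk of miRNAs equal between libraries. By rpmm the numbers were 79 and 12. Both mice were under aDR, so the set-apart mice and the diet cannot be told apart where a result rests on them. In 3 of the 11 other regions with libraries of both mice, miR-128-3p was above every other library of the region in both. What set these mice apart was not tested.

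**Figure D2:**
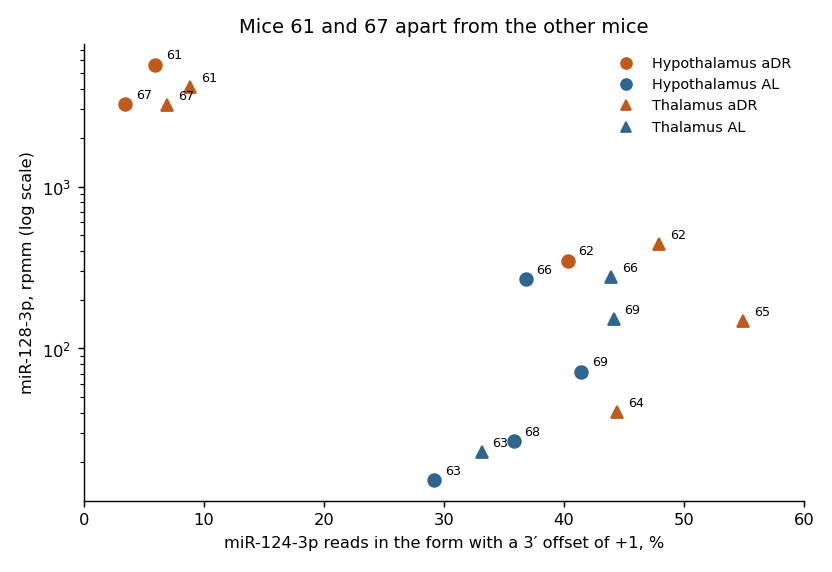
Level of miR-128-3p (vertical axis, rpmm, log scale) against the share of miR-124-3p reads in the form with a 3′ offset of +1 (horizontal axis, %), for each of the 15 libraries. The 4 libraries of aDR mice 61 and 67 lie at 3182 to 5648 rpmm and 3.44% to 8.85%, apart from the other 11.

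A first question was how the make-up of the miRNA reads differed by diet. The let-7 family took less of the hypothalamus libraries under aDR. Its share was 40.3%, 47.8% and 33.6% of miRNA reads in aDR mice 61, 62 and 67. In AL mice 63, 66, 68 and 69 it was 81.0%, 58.2%, 76.2% and 63.3%. The groups did not overlap, with means of 40.6% ± 7.14 (SD, n = 3) and 69.7% ± 10.7 (SD, n = 4). The exact permutation test gave p = 0.0571, the smallest value that 3 against 4 libraries allow, and 0.0773 after adjustment over 23 values per library. In thalamus the share was 37.9%, 40.6%, 61.0%, 46.6% and 48.3% in aDR mice 61, 62, 64, 65 and 67, and 79.5%, 42.2% and 44.4% in AL mice 63, 66 and 69. These groups overlapped (exact permutation p = 0.5), and the high AL value was again that of mouse 63. Intervals of counting error (Wilson, 95%) are at most 0.0507 percentage points to either side, far below the spread between mice. In bulk tissue, fewer cells of a type and less RNA per cell cannot be told apart.

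The most abundant hypothalamus miRNA, let-7c-5p, held 12.4%, 18.1% and 11.3% of reads in aDR and 28.9%, 19.5%, 22.4% and 20.4% in AL, again without overlap. The opposite order was seen for miR-124-3p, which drives neuronal identity. It held 11.8%, 8.04% and 6.16% of hypothalamus reads in aDR, and 0.789%, 5.17%, 1.76% and 3.70% in AL. In thalamus it held 4.51% to 14.9% in aDR and 2.14% to 11.9% in AL, and the groups overlapped. miR-124-3p is also 1 of the 10 thalamus markers. Its highest hypothalamus share is that of the library labelled hypothalamus of mouse 61. The part of regional make-up in its difference was not tested. Several other values moved with the let-7 share in hypothalamus. The number of miRNAs expected in a random draw of 1000000 reads, a measure of diversity at equal depth, was 845, 810 and 873 in aDR and 482, 752, 557 and 664 in AL. In thalamus it was 565 to 827 in aDR and 468 to 714 in AL. In the other 12 regions the mean difference of diversity between aDR and AL lay between −84.7 and 77.7, was above 0 in 8, and only 1 region had no overlap. The difference was 229 in hypothalamus and 107 in thalamus. The share of all isomiR reads (length and sequence variants of a miRNA) in the canonical form was 46.6% ± 1.32 in hypothalamus aDR and 53.5% ± 3.64 in AL, without overlap (n = 3 and 4, exact permutation p = 0.0571, adjusted p 0.0773). In thalamus it was 46.1% ± 2.23 in aDR and 47.7% ± 8.49 in AL (n = 5 and 3), which overlapped (exact permutation p = 0.714). The library labelled hypothalamus of mouse 61 was then left out, which gives 2 aDR and 4 AL hypothalamus libraries. Groups without overlap cannot come to overlap when a library is left out, so their staying apart is no further support. The shares of let-7, let-7c-5p, miR-124-3p and canonical forms and the diversity were of this kind. Each was then at an exact permutation p of 0.133, the smallest possible, and 0.161 after adjustment. The summed shares of several, but not all, lists of cell type miRNAs also moved with the let-7 share in hypothalamus. Those of leukocytes and microglia held 0.177% to 0.448% of reads in aDR and 0.00955% to 0.118% in AL. The oligodendrocyte list held 0.271% to 0.673% against 0.0117% to 0.244%, and the vessel wall list 0.217% to 0.383% against 0.0395% to 0.194%. None of the 3 overlapped (exact permutation p = 0.0571, adjusted p 0.0773), and in thalamus all 3 overlapped. The red blood cell list did not overlap in hypothalamus either, at 0.000441% to 0.00349% against 0% to 0.000435%. The neuron list overlapped, at 10.2% to 18.8% in aDR and 5.11% to 11.3% in AL (exact permutation p = 0.171). The choroid plexus and ependyma list, at 2.36% to 4.98% and 1.33% to 2.67%, and the striated muscle list, at 0.0210% to 0.0597% and 0.00414% to 0.0254%, overlapped as well (exact permutation p = 0.114 each). Without the library labelled hypothalamus of mouse 61 the choroid plexus and ependyma list no longer overlapped, at 3.02% to 4.98% in aDR (exact permutation p = 0.133, adjusted p 0.161). The neuron and striated muscle lists still overlapped. As shares of 1 total, the shares of all these lists and that of let-7 are not independent, and the part of cell make-up in these differences was not tested. RNA integrity and the input of each library were not part of the labels, and their part in these differences was not tested.

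**Figure D3:**
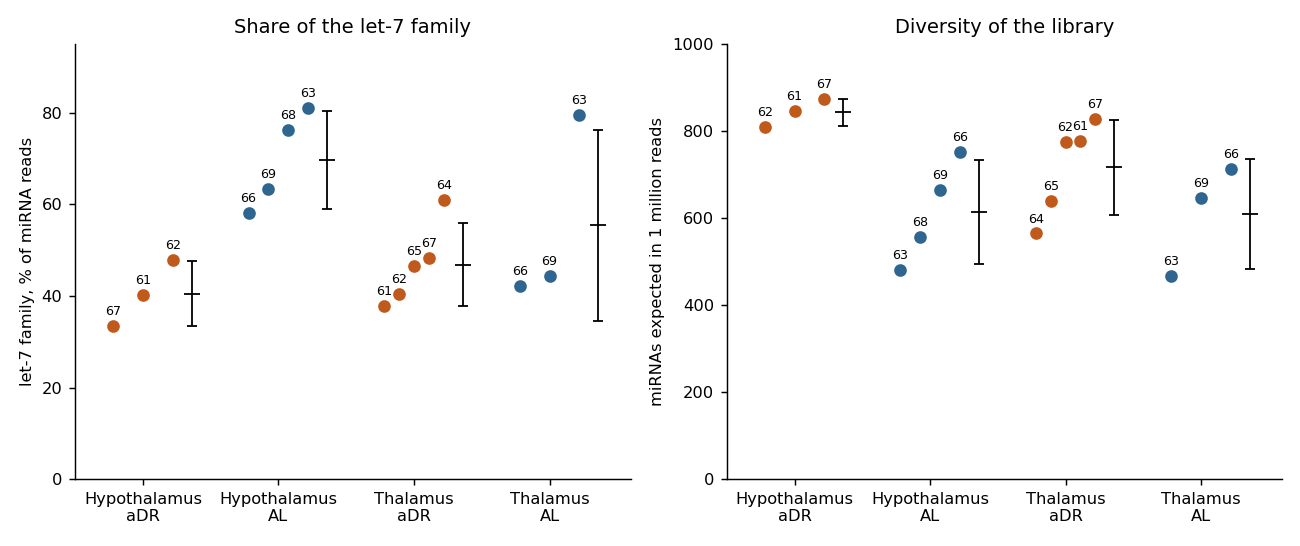
Left, share of miRNA reads in the let-7 family (%). Right, number of miRNAs expected in 1000000 reads. Each point is a library, with the mouse number, by region and diet, and bars give the mean ± SD; in hypothalamus aDR libraries lie below AL for let-7 (33.6% to 47.8% against 58.2% to 81.0%) and above for diversity, whereas the thalamus groups overlap.

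In hypothalamus, 105 of 1263 miRNAs differed between aDR and AL (8.31%), with 41 higher in aDR (3.25%) and 64 lower (5.07%). A call needed an adjusted p below 0.05 in the edgeR quasi-likelihood test and a fold change of at least 1.5. The scale matters here. With TMM the median log2 difference of all miRNAs was 0.58, whereas with the total miRNA count alone, which is the rpmm scale, it was 2.03. Under the total count only 5 miRNAs were called, all higher, and with limma on log2(rpmm + 1) 351 were called, 347 of them higher. Of the 105 miRNAs, 104 kept their direction under the total count, the exception being miR-672-5p. Levels below are in rpmm and differences are on the log2 scale after TMM, with the total-count difference beside those the results turn on. With the diversity of each library as a term none of the 105 was called, 30 miRNAs had an unadjusted p below 0.05 (edgeR), and 93 of the 105 kept their direction. Diversity comes from the same counts and did not overlap between the diets, at 810 to 873 in aDR and 482 to 752 in AL. This fit therefore cannot tell the part of diversity from that of diet. Without the library labelled hypothalamus of mouse 61, 19 miRNAs were called, all of them among the 105. Without mouse 67 it was 6, and without both, which leaves mouse 62 as the lone aDR library and assumes that it varies as the AL libraries do, it was 6 as well. Leaving out AL mice 68, 69 and 66 gave 46, 54 and 177.

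Only miR-128-3p, miR-148b-3p and miR-135a-1-3p were called with every single library left out. The hypothalamus level of miR-128-3p was 5648, 348 and 3217 rpmm in aDR mice 61, 62 and 67, and 15.4, 268, 26.7 and 72.1 in AL mice 63, 66, 68 and 69. The groups did not overlap, but mouse 62 was close to AL mouse 66. The log2 difference was 3.63 (SE 0.66, adjusted p 4.66e-05, edgeR), 5.01 on the total count, and 0.91 without mice 61 and 67 (adjusted p 0.8). miR-148b-3p, whose seed is that of the miR-148 and miR-152 family, was at 193, 23.0 and 177 rpmm in aDR and 0.497, 7.85, 0.816 and 2.13 in AL. All 3 aDR libraries were above all 4 AL libraries. Its log2 difference was 4.12 (SE 0.73, adjusted p 3.21e-05, edgeR). miR-135a-1-3p, the less common arm of its hairpin, moved the other way. It was at 2.10, 4.06 and 21.6 rpmm in aDR and 48.4, 20.4, 17.5 and 25.5 in AL, where the aDR mouse 67 lay among the AL values. The log2 difference was −4.06 (SE 0.79, adjusted p 0.000176, edgeR) and −1.59 on the total count.

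All 9 members of the let-7 family were called lower in hypothalamus, beside 5.07% of all miRNAs tested. Their median log2 difference was −2.90 where that of all miRNAs was 0.58, and on the total count the family was at −0.71 and all miRNAs at 2.03, with 9 of 9 members lower on both scales. None of the 9 was called on the total count. The TMM factor itself did not overlap between the diets, at 1.72 to 2.63 in aDR and 0.308 to 1.44 in AL. let-7e-5p was at 27722, 50543 and 31500 rpmm in aDR and at 97527, 66798, 102572 and 71776 in AL, without overlap. It was lower by −3.42 on the log2 scale (SE 0.90, adjusted p 0.00693, edgeR) and −1.21 on the total count. miR-98-5p, at 1157, 1239 and 1403 rpmm in aDR and 3436, 1815, 3190 and 2550 in AL, gave −3.44 (adjusted p 0.00105, edgeR). The differences of let-7a-5p and let-7c-5p were −3.27 and −2.90, and that of let-7c-5p was −0.71 on the total count. In rpmm let-7b-5p, let-7g-5p and let-7i-5p overlapped between the diets, with let-7g-5p at 18620 to 28966 in aDR and 20293 to 31062 in AL, while the other 6 of the 9 did not. let-7k, which shares the seed but is shorter, was at 9.58 to 16.0 rpmm in aDR and 22.5 to 24.3 in AL (log2 difference −3.04). With any 1 library left out, 9 of 9 remained lower and the median lay between −3.24 and −2.50, while the number called ran from 0 without aDR mouse 67 and 1 without the library labelled hypothalamus of mouse 61 (median −2.82) to 9. It was 6 without AL mouse 63, and 4 without AL mouse 68 or AL mouse 69. Without both aDR mice 61 and 67 the median was −2.53, with none called. With diversity as a term it was −0.69, with 9 of 9 lower and none called. In thalamus none of the 9 was called, and the median was −1.21 by TMM with 9 of 9 lower, but 5 of 9 were lower on the total count and 1 of 9 without AL mouse 63.

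The largest increases called in hypothalamus held low and abundant miRNAs alike. miR-7689-3p came first with 4.12, but its value of 2593 rpmm in mouse 61 stood against 123 and 47.8 in the other aDR mice and 5.75 to 39.4 in AL, and without that library its log2 difference was 0.98 (adjusted p 0.507, edgeR). It is the thalamus marker named above. miR-451a, the red blood cell miRNA, had 29, 17 and 42 reads in aDR and 0, 0, 1 and 1 in AL (adjusted p 0.0393, edgeR). Its counts are too low for a stable fold. miR-221-3p, a regulator of the cell cycle that is also rich in endothelium, was at 557, 35.9 and 504 rpmm in aDR and 1.45, 49.5, 4.76 and 15.0 in AL (log2 difference 3.02). Mouse 62 lay below AL mouse 66. miR-335-5p, from an intron of the imprinted gene Mest, was at 26.1, 11.4 and 205 rpmm against 0.0414, 16.9, 0.204 and 1.86 (log2 difference 3.05). miR-491-5p (2.98) was at 57.9, 15.2 and 101 rpmm in aDR and 0.0828, 9.54, 0.680 and 2.22 in AL, and its groups did not overlap. Also among the largest increases were miR-671-3p (3.62), miR-409-5p (3.19) and miR-873a-3p (3.12). Of the miRNAs named in this paragraph, miR-221-3p, miR-335-5p, miR-491-5p and miR-873a-3p were still called without the library labelled hypothalamus of mouse 61. In most increases and decreases mice 61 and 67 led. Of the 41 miRNAs called higher, 39 were above mouse 62 in both of these mice, and in 25 of them all 4 libraries of these mice were above the other 11 libraries (TMM-scaled CPM). Of the 64 called lower, 49 were below mouse 62 in both, and in 27 of them all 4 libraries were below the other 11 (10 by rpmm, against 28 of the increases).

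Several of the largest decreases rested on few reads or 1 library. miR-6999-5p had 0 reads in aDR and 17, 0, 7 and 0 in AL. Its AL mean of 0.295 rpmm is below the 0.348 to 0.394 rpmm that a count of 0 allows in the aDR libraries, so no fold is given. miR-196a-5p had 162 reads in AL mouse 63 and at most 4 in any other hypothalamus library. miR-429-3p, a member of the miR-200 family of epithelial and pituitary cells, was at 15.2, 1.74 and 59.5 rpmm in aDR and 123, 1.93, 6.94 and 1083 in AL. The groups overlapped and AL mouse 69 was far above the rest, while the log2 difference was −5.57 (SE 0.91, adjusted p 7.26e-06, edgeR). miR-429-3p is also 1 of the 10 hypothalamus markers. miR-200a-5p, of the same cluster, gave −4.85 with 27.1 rpmm in mouse 69. Better filled were miR-344-3p, at 44.9, 420.0 and 97.7 rpmm in aDR and 569.7, 469, 609 and 1126 in AL (−3.78), and miR-222-5p, at 1.18, 7.43 and 1.91 rpmm against 7.97 to 21.7 (−4.01). Both were without overlap, with mouse 62 nearest to AL. Of the remaining decreases, miR-3962 gave −4.49, miR-7033-5p −3.71 and miR-7028-5p −3.58, each with under 100 reads in every hypothalamus library. miR-6999-5p, miR-7033-5p and miR-7028-5p were no longer called without the library labelled hypothalamus of mouse 61, and the other decreases of this paragraph were. In all, 79 of the 105 miRNAs had no overlap between aDR and AL on the TMM scale and 53 in rpmm, and 19 had a mean under 10 CPM. The 105 were picked for their difference in these same libraries, and the share without overlap over all miRNAs tested was not taken. These counts therefore only describe the calls.

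**Figure D4:**
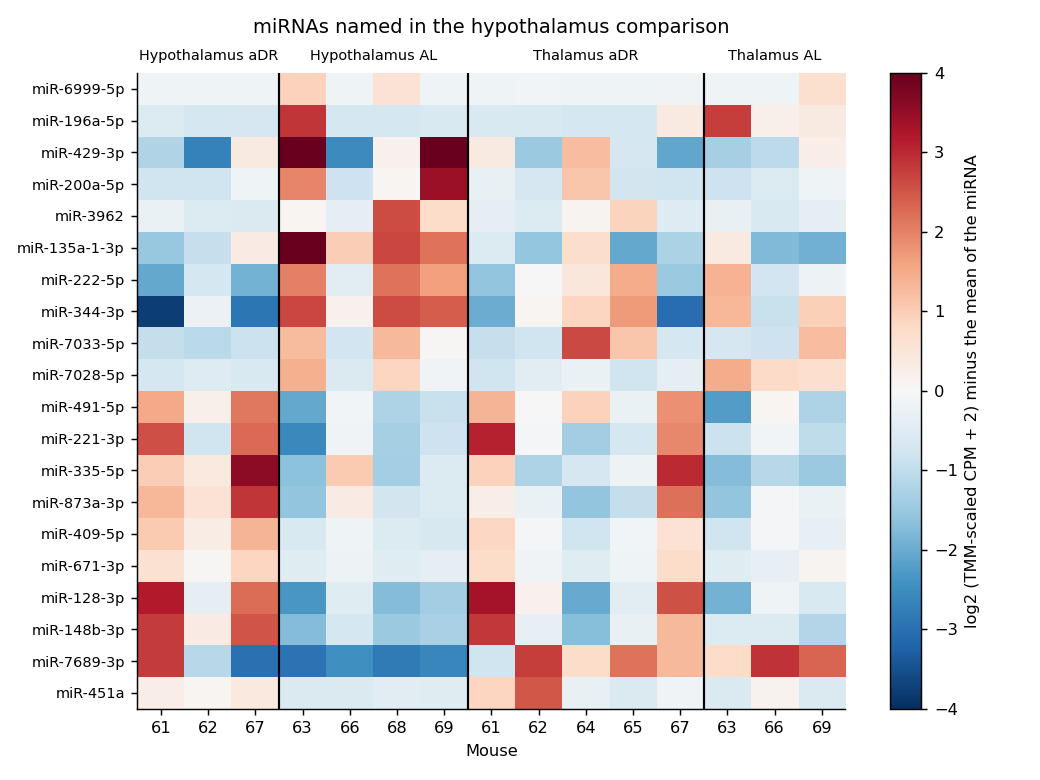
Level of the miRNAs named in the hypothalamus comparison (rows) in each library (columns, by mouse), as log2 (TMM-scaled CPM + 2) minus the mean of that miRNA, red above and blue below. In the rows of miR-221-3p, miR-128-3p and miR-148b-3p the 4 libraries of mice 61 and 67 are the reddest, and in that of miR-429-3p the reddest are hypothalamus AL mice 63 and 69.

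**Figure D5:**
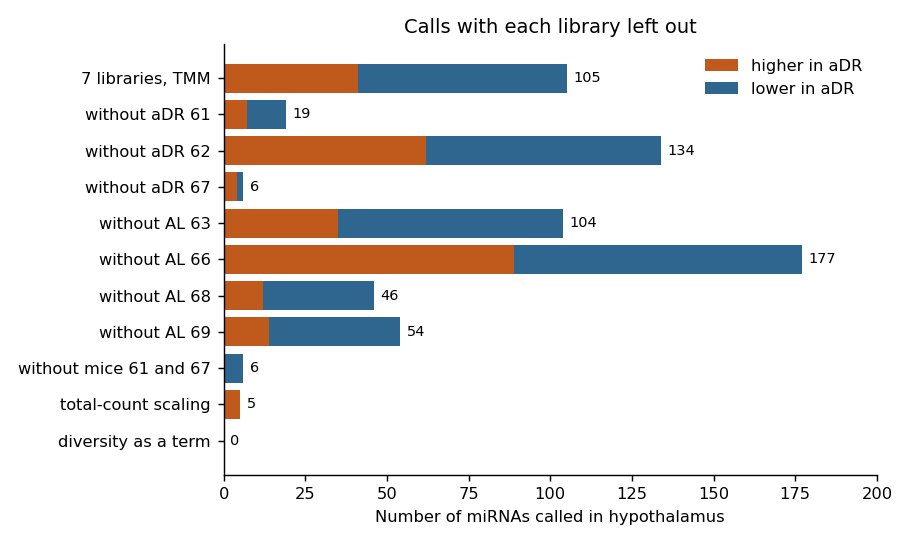
Number of miRNAs called higher and lower in hypothalamus (horizontal axis) with all libraries and with each library left out. The number is 105 with all libraries and runs from 6 without aDR mouse 67 to 177 without AL mouse 66.

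miRNA lists were then read by role, beside the 3.25% called higher and 5.07% called lower among all miRNAs. Of 17 miRNAs studied in feeding, insulin or lipid metabolism, 1 was called higher and 1 lower in hypothalamus. Their summed share of reads was 5.76%, 5.04% and 4.84% in aDR and 0.768%, 3.39%, 1.17% and 1.91% in AL, without overlap (exact permutation p = 0.0571, adjusted p 0.0773). Most of the 23 values per library did not overlap in hypothalamus at this same p. As shares of 1 total, the share of this list and that of let-7 are not independent. In thalamus the shares overlapped, at 1.58% to 4.74% and 0.774% to 3.43%. After TMM the median log2 difference was 1.04 (0.58 over all miRNAs), 13 of 17 were above 0, and none was called without the library labelled hypothalamus of mouse 61. miR-384-3p was called higher (2.09, adjusted p 0.0400, edgeR). Its levels were 96.1, 25.1 and 176 rpmm in aDR and 0.373, 25.2, 4.08 and 5.59 in AL, with mouse 62 level with AL mouse 66. miR-383-5p was called lower (−2.59, adjusted p 0.0123, edgeR), but its levels overlapped in rpmm, at 2512, 3505 and 3593 in aDR and 3010 to 5660 in AL, and its total-count difference was −0.46. The insulin-related pair miR-103-3p and miR-107-3p did not pass. miR-103-3p was at 5982, 2909 and 4154 rpmm in aDR and 63.6, 2627, 202 and 869 in AL (1.02, adjusted p 0.298, edgeR), and miR-107-3p gave 1.26. miR-29a-3p, miR-29b-3p and miR-29c-3p, which hold back collagen genes and are raised in diabetic tissue, gave 0.25, 1.14 and 0.36 without passing. miR-33-5p, which lies in the gene of the sterol regulator SREBP2, gave 1.04 and also did not pass.

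On the neuroendocrine side, the 8 miRNAs of the list held 0.302%, 0.837% and 5.25% of hypothalamus reads in aDR mice 61, 62 and 67, and 0.578%, 1.57%, 0.672% and 1.39% in AL, which overlapped (exact permutation p = 0.743, and 0.4 without the library labelled hypothalamus of mouse 61). miR-7a-5p was at 1754, 5682 and 33427 rpmm in aDR and at 4227, 11081, 5112 and 9753 in AL. The lowest of these values is that of the library labelled hypothalamus of mouse 61, which carried thalamus markers, and without it the groups overlapped too. miR-375-3p, of pituitary and islet cells, was at 41.0, 192 and 1459 rpmm against 565, 76.3, 319 and 612. The log2 differences were −1.15 for miR-7a-5p, −0.18 for miR-7b-5p and −2.001 for miR-375-3p, none of which passed. Without that library they were −0.63, 0.32 and −1.45, so the direction of miR-7b-5p depends on it, and again none passed. miR-200c-3p was at 262 rpmm in aDR mouse 67 and 0.697 to 82.9 in the other hypothalamus libraries, and only miR-429-3p of this list was called. miR-200a-3p, miR-200b-3p and miR-141-3p were at most at 68.8 rpmm in any library.

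Among neuronal miRNAs, 2 of 7 were called higher in hypothalamus and 1 lower. These were miR-128-3p, miR-9-3p (1.81, adjusted p 0.0471, edgeR) and miR-129-5p (−2.59, adjusted p 0.0115, edgeR). The level of miR-9-3p was 739.8, 209 and 1031 rpmm in aDR and 4.80 to 192 in AL, while that of miR-129-5p was 2338 to 3301 in aDR and 3310 to 5583 in AL. miR-124-3p gave −0.03 after TMM and 1.60 on the total count, so its direction depends on the scale, with its share given above. Of 4 oligodendrocyte miRNAs, miR-338-3p was called higher, at 1680.5, 1113 and 423 rpmm against 18.4, 397, 25.2 and 70.7 (2.00, adjusted p 0.0278, edgeR). miR-338-3p is also 1 of the 10 thalamus markers, and its highest level here is in the library labelled hypothalamus of mouse 61. miR-219a-5p, which drives oligodendrocyte maturation, gave 1.92 without passing. Of 5 vessel wall miRNAs tested, miR-145a-5p of smooth muscle and pericytes was called higher, at 754, 158 and 509 rpmm against 2.82 to 90.7 (2.63, adjusted p 0.00407, edgeR). None of 6 miRNAs of leukocytes and microglia was called, and 6 of 6 were above 0 (median 1.58, beside 0.58 over all miRNAs). Of 4 red blood cell miRNAs tested, miR-451a was called, and miR-486a-5p gave 2.83 with 50, 10 and 126 reads in aDR and 0, 18, 0 and 0 in AL. The summed red blood cell share was at most 0.00349% in any hypothalamus library, that of mouse 67. The 10 miRNAs of the activity and clock list held 0.566% to 0.655% of reads in aDR and 0.281% to 0.481% in AL, without overlap (exact permutation p = 0.0571, adjusted p 0.0773). This share too is not independent of that of let-7. After TMM 5 of 10 were above 0 (median 0.08, beside 0.58 over all miRNAs). Of these 10, miR-212-3p alone was called, lower (−2.87, adjusted p 0.00457, edgeR), at 429, 1865 and 812 rpmm against 1492 to 3060, which overlapped. Without the library labelled hypothalamus of mouse 61, 1 of the neuronal miRNAs was called and none of the oligodendrocyte, vessel, red blood cell or activity lists.

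The 2 large imprinted clusters were also followed. In the Dlk1-Dio3 cluster, 5 of 100 miRNAs were called higher and 9 lower in hypothalamus (median 0.80, beside 0.58 over all miRNAs). Higher were miR-376a-5p (2.41), miR-337-5p (1.97), miR-433-3p (1.87) and miR-495-3p (1.96) beside miR-409-5p. Lower were miR-323-5p (−3.42), miR-433-5p (−2.89), miR-412-3p (−2.77), miR-369-5p (−2.64), miR-379-5p (−2.61) and miR-341-3p (−2.41), among others. For miR-433 and miR-409 the arms of the same hairpin were called in opposite directions, since miR-409-3p gave −2.09. For miR-409-3p this rests on the scale, as its levels overlapped in rpmm, at 411 to 678 in aDR and 346 to 789 in AL, and its total-count difference was −0.06. miR-433-5p also overlapped in rpmm, at 18.6 to 62.2 and 33.3 to 125, and gave −1.05 on the total count. The same held for miR-323-5p, miR-412-3p, miR-369-5p and miR-341-3p, whose aDR and AL levels overlapped in rpmm, whereas those of miR-379-5p did not. The summed share of the cluster was 5.76%, 5.59% and 11.7% in aDR and 1.77% to 4.08% in AL. As a share of the same total, it is not independent of that of let-7. In the Sfmbt2 cluster, 4 of 75 were called higher and 1 lower (median 1.51, beside 0.58 over all miRNAs). The higher ones were the pairs miR-467a-5p and miR-467b-5p (2.25) and miR-669a-3p and miR-669o-3p (2.11), whose members carry identical values in every one of the 15 libraries, so each pair is 1 measurement here. Only miR-323-5p of the first cluster and none of the second was called without the library labelled hypothalamus of mouse 61.

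In thalamus, 4 of 1256 miRNAs were called (0.318%), all higher in aDR, and 121 had an unadjusted p below 0.05 (edgeR). miR-1298-5p, from the Htr2c intron and abundant in choroid plexus, was at 2238, 24.1, 8.43, 6.53 and 45.4 rpmm in aDR mice 61, 62, 64, 65 and 67, and 3.87, 11.4 and 13.0 in AL. The log2 difference was 4.66 (SE 0.85, adjusted p 5.47e-05, edgeR), and it was 0.33 without mouse 61 (adjusted p 0.883), 4.96 without mouse 67 and −0.013 without both. miR-34b-5p and miR-34c-5p, the ciliated-cell miRNAs of 1 transcript, showed the same library. They were at 1251 and 916 rpmm in mouse 61 and at most 98.8 and 90.7 in the other aDR mice (log2 differences 3.91 and 3.49, and 1.34 and 1.12 without mouse 61). The choroid plexus and ependyma list, to which these belong, held 11.6% of the reads of aDR mouse 61, 1.41% to 4.81% in the other aDR mice and 1.24% to 1.47% in AL. miR-335-5p was at 16.4, 1.24, 1.40, 2.97 and 104 rpmm in aDR and 0, 1.27 and 0.347 in AL (4.63, adjusted p 0.0141, edgeR), with the highest values again in mice 61 and 67. Without mouse 61 no miRNA was called and 75 had an unadjusted p below 0.05. Leaving out AL mice 63, 66 and 69 gave 0, 1 and 2 calls (69 with an unadjusted p below 0.05 without mouse 63), and leaving out aDR mouse 64 gave 21. DESeq2, limma on log2(rpmm + 1) and the fit with diversity as a term called none, with 97, 48 and 99 at an unadjusted p below 0.05.

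Thalamus showed 1 further difference by list. The neuroendocrine share was 0.0840% to 0.381% in aDR and 0.0406% to 0.0570% in AL, without overlap (exact permutation p = 0.0357, the smallest that 5 against 3 allow), but 0.483 after adjustment over 23 values. miR-7a-5p was at 567 to 2258 rpmm in thalamus aDR and 211 to 333 in AL, without overlap in rpmm (log2 difference 1.13, adjusted p 0.575, edgeR). miR-128-3p gave 2.60 (adjusted p 0.124, edgeR) and miR-148b-3p 2.29, neither of which passed. miR-21a-5p, an miRNA induced in reactive glia and inflammation, was called in hypothalamus (2.39, adjusted p 0.00783, edgeR) but not without the library labelled hypothalamus of mouse 61 (1.91, adjusted p 0.143), and in thalamus gave 1.48 without passing. Of the feeding and energy balance list none of 17 was called in thalamus, where 0.318% of all miRNAs were called. The median of the list was 0.74 beside 0.76 over all miRNAs.

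With both regions in 1 fit, region as a term and the mouse as block, none of 1299 miRNAs was called (0%, limma voom), while 254 had an unadjusted p below 0.05. The smallest p belonged to miR-1895, miR-491-5p and let-7k, with log2 differences of −3.005, 3.19 and −2.29, all at an adjusted p of 0.161 (limma). miR-1895 was at 6.77 to 91.9 rpmm in aDR and 22.3 to 213 in AL over both regions. miR-335-5p gave 3.59, miR-21a-5p 1.98, miR-9-3p 1.96, miR-30a-5p 1.74, let-7e-5p −2.05 and miR-3099-3p, a hypothalamus marker, −1.96. Without the library labelled hypothalamus of mouse 61 none was called either, 187 had an unadjusted p below 0.05, and miR-1895 and miR-491-5p still had the smallest p (adjusted p 0.283, limma). Leaving out aDR mouse 64 gave 74 calls, and leaving out AL mouse 66 gave 22. Log2 levels were also centred in each region on the midpoint of its aDR and AL means and then averaged by mouse, giving 5 aDR and 4 AL mice. After this step miR-1895, miR-29b-3p, miR-3070-2-3p, miR-488-3p and miR-7028-5p did not overlap between diets. Each had an exact permutation p of 0.0159, the smallest possible, and 0.259 after adjustment over 106 miRNAs. The centring uses the diet labels, so this p can be too small. Many of the 106 were named for their aDR difference, and the share without overlap over all miRNAs was not taken. The same 5 did not overlap when the library labelled hypothalamus of mouse 61 was left out.

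The aDR difference was next compared between regions. None of 1299 miRNAs differed in it between hypothalamus and thalamus (0%, limma), with 134 at an unadjusted p below 0.05, and 1 was called on the total count. With the test limited to miRNAs whose mean reached 10 CPM, 16 were called, at adjusted p from 0.0485 to 0.0496 (limma), and 3 of these were also called in hypothalamus. They were miR-330-3p, miR-7a-2-3p and miR-598-3p, with differences of 2.25, −2.92 and −2.48, and are named after their values were seen. miR-7a-2-3p is 1 of the 10 hypothalamus markers. None of the 16 was called under this filter without the library labelled hypothalamus of mouse 61, where the lowest adjusted p was 0.125 (51 of 381 at an unadjusted p below 0.05, limma). By the test over all 1299 miRNAs, a call in hypothalamus alone is not shown to be particular to it. The smallest p was that of miR-7a-5p, with −3.12 (SE 0.80, adjusted p 0.272, limma), and miR-7b-5p gave −2.50. Both are among the markers by which the library labelled hypothalamus of mouse 61 looked like thalamus, and without it they gave −2.03 (adjusted p 0.41, limma) and −1.60, with none called among all miRNAs and 110 at an unadjusted p below 0.05. For let-7f-5p the difference was −2.08 (SE 0.69, adjusted p 0.321, limma), and for let-7c-5p −1.16 (SE 0.72, adjusted p 0.554, limma). The mean aDR difference of these 2 regions was also compared with that of the other 12 regions. Here 360 of 1334 miRNAs were called (27%, limma voom), with 241 higher (18.1%) and 119 lower (8.92%), and with the total count the split was 503 higher and 9 lower. miR-335-5p (3.65, SE 0.66, adjusted p 6.3e-05, limma), miR-491-5p (3.00) and miR-488-3p (2.31) were more raised in these regions, miR-128-3p gave 2.40 and let-7c-5p −1.58 (adjusted p 0.0049, limma). For let-7g-5p and let-7i-5p the difference after TMM, −0.94 and −0.79, turned to 0.19 and 0.35 on the total count. With the diversity of each library as a term, 6 of the 360 were called. No fit of this comparison left out both mice 61 and 67. The correlation within a mouse was set at 0.0695, against 0.390 in the fit of both regions, so p can be too small here. Without the library labelled hypothalamus of mouse 61, 317 were called, 308 of them among the 360, and let-7c-5p gave −1.61 (adjusted p 0.0102, limma).

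The 3 miRNAs that the study follows across brain aging were not called in either region. miR-155-5p, which rises in activated microglia and macrophages, was at 55.4, 20.2 and 98.2 rpmm in hypothalamus aDR and 2.40, 17.8, 7.21 and 10.8 in AL, without overlap, but after TMM its log2 difference was 0.79 (SE 0.69, adjusted p 0.457, edgeR). In thalamus it was at 78.5, 18.4, 15.7, 12.9 and 72.0 rpmm in aDR and 0, 26.9 and 11.5 in AL (1.22, adjusted p 0.576, edgeR). miR-146a-5p, a brake on innate immune signalling, was at 672, 196 and 689 rpmm in hypothalamus aDR and 14.8, 198, 46.8 and 83.3 in AL, where mouse 62 lay just below AL mouse 66 (1.02, adjusted p 0.283, edgeR). miR-5100 was near the floor, with 0 to 21 reads in any library. Against the other 12 regions, miR-155-5p (1.68, SE 0.43, adjusted p 0.00254, limma) and miR-146a-5p (1.17, SE 0.31, adjusted p 0.00358, limma) were more raised here. In these regions the highest aDR levels were those of mice 61 and 67. miR-155-5p was at 55.4 to 98.2 rpmm in these mice and 12.9 to 20.2 in the other aDR libraries. miR-146a-5p was at 575 to 689 and 56.2 to 244 rpmm. No fit of this comparison left these mice out. With diversity as a term, 6 of its 360 calls remained. The correlation within a mouse was set at 0.0695, against 0.390 in the fit of both regions, so these p can be too small. In the aging cohort, which is other mice of both sexes (25 females of 3 to 21 months and 34 males of 3 to 28 months), 17 miRNAs rose with age in thalamus and 36 fell. Of the 17, which include miR-146a-5p and miR-155-5p, none was called under aDR in thalamus, where 0.318% of all miRNAs tested were called. Their median log2 difference was 0.46 beside 0.76 over all miRNAs. Of the 36, most of which are miRNAs of the Sfmbt2 families such as miR-466a-3p and miR-297a-3p, none was called, and the median was 1.17. Some of the 36, such as miR-467a-5p and miR-467b-5p, carry identical values and are 1 measurement. At a share of 0.318%, the lack of a call in lists of this size is no result about them. In hypothalamus of the aging cohort only miR-5100 rose and none fell, so no such comparison could be made there.

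IsomiR forms were compared as a readout that does not depend on the scaling between libraries. For 49 named miRNAs with at least 100 isomiR reads in every library, the share of reads in the most abundant form was taken. In hypothalamus 14 of them did not overlap between aDR and AL, each at the smallest exact permutation p of 0.0571 (adjusted p 0.2), and in thalamus none was without overlap. Without the library labelled hypothalamus of mouse 61 these 14 stay without overlap by construction, and no other miRNA joined them. Many of the 49 were named for their aDR difference, and the share without overlap over all 165 miRNAs with enough reads was not taken. No result about isomiR forms is therefore drawn from this count. The form of miR-124-3p with a 3′ offset of +1 made up 16.5% ± 20.6 (SD, n = 3) of its hypothalamus reads in aDR and 35.8% ± 5.05 (SD, n = 4) in AL (exact permutation p = 0.229). The spread in aDR came from mice 61 and 67, at 5.91% and 3.44%, against 40.3% in mouse 62, which lay within the AL range. let-7c-5p reads were canonical to 59.0%, 63.8% and 60.2% in aDR and 61.9% to 64.5% in AL, which overlapped. Over 165 miRNAs, the mean 3′ offset was lower in all 4 libraries of mice 61 and 67 than in the other 11 for 10 miRNAs, among them miR-124-3p, miR-138-5p and miR-7b-5p, and higher for 30, among them miR-107-3p and miR-24-3p. Of all isomiR reads, 11.9% were in forms without an offset in their name and did not enter these means. Forms with a 5′ offset other than 0 did not enter them either.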

How the data were processed

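miRNA counts of 15 libraries of hypothalamus and thalamus (aDR and AL, 9 mice) were analysed. Per the study, small RNA libraries were made with adapter ligation and PCR (no molecular identifiers are named), pooled at random, sequenced as single-end reads on a BGISEQ instrument, and processed by the authors with miRMaster against GRCm38 and miRBase. Expected counts of miRNAs and of isomiR forms, not normalised, are what the authors deposited. Of the values in the miRNA table, 0.837% were not whole, and expected counts were rounded before fitting. Depth ranged from 3.56 to 24.2 mega-reads per library, and intervals and limits cover counting error only.

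The filter asked for 5 or more reads in 10% or more of a region's libraries, for 1 region or more (1334 of 1966 miRNAs), and miRNAs without a read in a fit left out. Each region was tested with edgeR 4.0.16 (quasi-likelihood, TMM). Both regions, the difference of the aDR effect between them, the difference from the other 12 regions and hypothalamus against thalamus were tested with limma 3.58.1 (voom, mouse as random block). All tests were two-sided with Benjamini-Hochberg adjustment over all miRNAs tested, and a call needed an adjusted p below 0.05 and a fold of at least 1.5. Single values per library were tested by exact permutation within a region (SciPy 1.17.1). The fits were also run on simulated counts with known changes. These counts had no mouse effect, no set-apart libraries and as many increases as decreases. They therefore give no support for the fits where the data depart from that.

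The mouse number in the labels is the animal and pairs the regions. Deviations from group means correlated by 0.370 to 0.805 between regions in the 6 mice with both (357 miRNAs). No mouse is in both diets.

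Named were, for each region and both, up to 10 called miRNAs in each direction by size, filled up to 5 with those of smallest p at 10 CPM or more, all members of the lists for aging, erythrocyte, neuroendocrine and feeding miRNAs, the called or 2 strongest members of other lists, and the most abundant miRNA. The libraries, miRNA lists and marker lists were chosen with earlier results of these data known, so a pattern among them is no independent support. Alternatives were RLE size factors, the total count, DESeq2 1.42.0, limma on log2(rpmm + 1), other filters, 1 fit of all regions, no block, and leaving out each library. Diversity as a term and leaving out mice 61 and 67 or the library labelled hypothalamus of mouse 61 were added after seeing the data. Markers and age lists came from 115 hypothalamus and thalamus libraries of 59 other C57BL/6JN mice (edgeR, sex as a term), 25 females of 3 to 21 months and 34 males of 3 to 28 months, fed ad libitum.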

Additional observations from a re-analysis of the deposited data

Results flagged for a closer look

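Of 258 groups of levels and shares with 4 or 5 libraries, 41 had 1 library far from the others by Dixon's test. The chance rate of this test, about 1 in 20, holds only for independent values with a normal distribution. Levels in rpmm can be strongly skewed, and some miRNAs carry identical values. Many of the miRNAs were also named for their aDR difference in these same libraries. The count of 41 therefore cannot be compared with chance and only describes the groups. Levels are in rpmm, and the range of the other libraries of the group follows in words where it matters. Explanations for these values were not tested.

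In AL hypothalamus, mouse 69 stood out in the miR-200 family, which marks epithelial and pituitary cells. miR-429-3p was at 1083, miR-200a-5p at 27.1, miR-200b-3p at 30.8, miR-200c-3p at 82.9, miR-200a-3p at 7.63 and miR-141-3p at 3.19, and miR-668-3p at 3676. For miR-429-3p the other AL libraries lay between 1.93 and 123. Mouse 66 was high among the AL mice in miR-21a-5p (68.1), miR-338-3p (397), miR-219a-5p (12.3), miR-206-3p (52.6), miR-335-5p (16.9), miR-409-5p (1.57), miR-671-3p (0.604), miR-486a-5p (2.17) and miR-486b-5p (2.17). The red blood cell share of mouse 66 was 0.000435%. Mouse 63 was low in let-7i-5p (9018, against 14519 to 14888) and high in miR-196a-5p (6.71).

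In aDR thalamus, mouse 61 stood out in miRNAs of choroid plexus and cilia. miR-1298-5p was at 2238, miR-34b-5p at 1251, miR-34c-5p at 916 and miR-211-5p at 2712, beside miR-200b-3p at 19.4, miR-200a-3p at 1.80 and miR-206-3p at 239. Its miR-141-3p value of 0.164 is 3 reads, the limit that a count of 0 allows in that library, against 0 reads in the other aDR libraries, so it is not shown to differ. For miR-211-5p the other aDR libraries lay between 214 and 791. Mouse 67 was high in miR-342-3p (7381), miR-335-5p (104), miR-873a-3p (52.4), miR-196a-5p (4.44) and the Sfmbt2 families, with miR-669a-3p and miR-669o-3p at 127.9 each, miR-467a-5p and miR-467b-5p at 45.5 each, miR-669c-5p at 297 and a summed Sfmbt2 share of 0.152%. Mouse 62 was high in the red blood cell miRNAs miR-451a (22.1) and miR-144-3p (1.09). Mouse 64 was high in let-7k (27.3) and mouse 65 in miR-3962 (2.85).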

How the results depend on the processing

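Over all named miRNAs and alternatives, 5274 values kept direction and side of the threshold, 520 were no longer past it, 157 were newly past it, 375 changed sign with no call in either fit, and 16 turned with a call in 1 of the fits. The depth of 3.56 mega-reads in the shallowest library limits miRNAs with few reads. In hypothalamus the 105 calls became 193 with DESeq2, 351 with limma on log2(rpmm + 1), 331 with all regions in 1 fit, 5 on the total count, 6 without mice 61 and 67, and 0 with diversity as a term (30 at an unadjusted p below 0.05, edgeR). They ranged from 6 to 177 with a library left out. In thalamus the 4 calls became 50 with all regions in 1 fit, 2 on the total count, 1 without mice 61 and 67, and 0 with DESeq2, with limma on log2(rpmm + 1), with diversity as a term and at a mean of at least 10 CPM (97, 48, 99 and 37 at an unadjusted p below 0.05), and 0 to 21 with a library left out. The fit of both regions gave 0 calls, and 0 to 74 with a mouse left out. With the mouse not used as block, or pairing, it also gave 0, while hypothalamus against thalamus fell from 101 to 22 calls. That comparison gave 62 on the total count and 157 without the library labelled hypothalamus of mouse 61. The difference between the regions gave 0 calls, 1 on the total count and 16 at a mean of at least 10 CPM, and 0 (51 at an unadjusted p below 0.05, limma) with that filter and without the library labelled hypothalamus of mouse 61. Against the other 12 regions the 360 calls became 310 without the replicate block, 193 at a mean of at least 10 CPM and 6 with diversity as a term. The causes were not tested.

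Turned values in hypothalamus were, with diversity as a term, miR-196a-5p (6.85), miR-6999-5p (1.41), miR-335-5p (−0.82), miR-376a-5p (−0.49), miR-7028-5p (0.42) and miR-495-3p (−0.15). miR-124-3p gave 1.88 with limma on log2(rpmm + 1). With a library left out miR-196a-5p ranged from −7.23 to 0.99 and miR-200b-3p from −2.08 to 4.28. In thalamus miR-1298-5p gave −0.013 without mice 61 and 67. Against the other regions let-7g-5p (0.19), let-7i-5p (0.35), miR-383-5p (0.10) and miR-669c-5p (0.21) turned on the total count, and let-7i-5p (0.022) and miR-103-3p (−0.13) with diversity as a term.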
